A study of Mus musculus with 19 samples.

Results

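The erythroid lineage was followed through 10 named genes in all 19 RNA-seq libraries: the transcription factors and cofactors *Gata1*, *Klf1*, *Zfpm1* and *Gfi1b*, the receptors *Epor* and *Tfrc*, and the effectors *Car1*, *Car2*, *Hba-a1* and *Hbb-bt*. All 10 were counted in every library, out of 54352 genes in the count tables. The libraries came from 2 sorted progenitor populations of mouse bone marrow. LSK cells (lineage negative, Sca1+ and cKit+; named KLS in the labels) hold the stem cells and multipotent progenitors, and common myeloid progenitors (CMPs; lineage negative, Sca1-, cKit+, CD34+ and Fcγ receptor low) lie below them in the myeloid branch. The cells descended from E-SLAM HSCs of C57BL6 donors that carried a doxycycline-inducible shRNA vector with a zsGreen reporter and had been transplanted into sublethally irradiated C57BL/6-CD45.1;cKit-w41 recipients of both sexes, 9 to 12 weeks old. After 10 weeks of reconstitution, doxycycline was given for 6 days and zsGreen+ cells were sorted. The shRNA was sh10 or sh20, each against the long noncoding RNA *Spehd*, or a control shRNA against the Renilla luciferase, and every group, controls included, carried the vector and received doxycycline. CMPs gave 4 Renilla, 3 sh10 and 2 sh20 libraries, and LSK cells gave 4, 3 and 3. The study asks what loss of *Spehd* does to blood progenitors, and the comparisons were CMP against LSK within each shRNA, *Spehd* knockdown against Renilla within each population, sh20 against sh10, and the difference of the knockdown effect between the populations. One well of transduced cells served several recipients, and the labels do not say whether the library letters stand for separate animals, so p-values measure the spread between these libraries, which may in part be technical.

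Red cell production begins when GATA1, with its cofactor FOG1 (encoded by *Zfpm1*), and then KLF1 turn on the erythroid genes, while GFI1B represses genes of other fates. Erythropoietin signals through its receptor EPOR to keep committed precursors alive, and TFRC, the transferrin receptor, brings in the iron that heme needs. Carbonic anhydrases (*Car1*, *Car2*) and the globins (*Hba-a1*, *Hbb-bt*) are products of the maturing cell, the globins being the last of these to reach high levels. GATA1, FOG1 and GFI1B also serve megakaryocytes, and CMPs are the stage at which erythroid and megakaryocytic potential is still present beside granulocytic and monocytic potential.

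Total counts per library ran from 3647318 to 5965155, with a median of 4918631. All 5 knockdown CMP libraries held more counts (4918631 to 5965155) than all 4 Renilla CMP libraries (3857980 to 4314959). Genes detected (any count) numbered 17174 to 18066 in the sh20 libraries of both populations and 18552 to 20678 in all Renilla and sh10 libraries. The part of this difference in the sh20 values was not tested. *Ly6a*, which encodes Sca1, lay at 1.58 to 9.83 CPM (read counts scaled to library size) in the 9 CMP libraries and at 39.9 to 81.7 CPM in the 10 LSK libraries, and *Kit* was present in all 19 (446 to 814 CPM in CMPs, 395 to 958 CPM in LSK cells). *Fcgr3* lay at 13.7 ± 7.16 CPM in CMPs and 53.7 ± 16.9 CPM in LSK cells (SD, n = 9 and 10), and *Cd34* ran from 187 to 408 CPM in CMPs, with both sh20 libraries at 187 CPM. Libraries of some groups stood further apart than others: chi-square per degree of freedom between library pairs was 4.32 to 8.07 within both Renilla groups and CMP sh10, 27.8 between the 2 CMP sh20 libraries, 13.9 to 18.3 within LSK sh20, and 37.7 and 45.2 for LSK sh10 B against A and C (5.24 for A against C). No gene counted bears the name *Spehd*, so its level was not analysed here and the knockdown was not checked.

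Promoter windows (250 bases before to 50 after a start site, RefSeq, GRCm38.p6) were found for 8 of the 10 genes, all but *Car1* and *Car2*. They were searched on both strands for the motif of GATA factors (the letters AGATAA, the letters AGATAG, the letters TGATAA or the letters TGATAG) and for the CACCC box of KLF factors (CCNCNCCC). A GATA motif occurred in the windows of 4 of the 8 genes, against 29.8% of the 32851 windows of that length in the same table, and a CACCC box in those of 6 of the 8, against 49.5%. The 4 windows with a GATA motif are shown for the place of the motif. All 8 genes with a window were called higher in CMPs with the Renilla shRNA (values below), those without a GATA motif included. Capitals mark every motif match on either strand, and runs of capitals longer than 8 bases are overlapping matches of the CACCC box. The windows are chr8:84901732-84902031 (plus strand) for *Klf1*, chr2:28621933-28622232 (minus strand) for *Gfi1b*, chr9:21963527-21963826 (minus strand) for *Epor* and chr11:32283422-32283721 (plus strand) for *Hba-a1*, each written 5′ to 3′ along the gene.
Klf1: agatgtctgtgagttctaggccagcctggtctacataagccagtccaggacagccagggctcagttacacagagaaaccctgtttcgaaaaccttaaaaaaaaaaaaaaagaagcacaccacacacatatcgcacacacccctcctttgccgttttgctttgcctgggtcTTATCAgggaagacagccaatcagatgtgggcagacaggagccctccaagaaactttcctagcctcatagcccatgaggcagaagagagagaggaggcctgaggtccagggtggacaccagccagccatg
Gfi1b: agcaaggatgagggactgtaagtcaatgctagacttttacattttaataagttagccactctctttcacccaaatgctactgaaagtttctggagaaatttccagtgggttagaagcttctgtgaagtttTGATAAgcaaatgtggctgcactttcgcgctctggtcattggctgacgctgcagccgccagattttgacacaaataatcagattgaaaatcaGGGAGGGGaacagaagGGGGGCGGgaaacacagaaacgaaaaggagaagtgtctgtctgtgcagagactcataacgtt
Epor: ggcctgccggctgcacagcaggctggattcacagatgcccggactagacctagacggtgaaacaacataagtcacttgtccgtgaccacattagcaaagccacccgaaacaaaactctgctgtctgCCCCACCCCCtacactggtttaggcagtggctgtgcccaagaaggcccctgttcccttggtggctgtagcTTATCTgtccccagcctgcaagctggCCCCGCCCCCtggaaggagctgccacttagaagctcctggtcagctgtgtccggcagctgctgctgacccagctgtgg
Hba-a1: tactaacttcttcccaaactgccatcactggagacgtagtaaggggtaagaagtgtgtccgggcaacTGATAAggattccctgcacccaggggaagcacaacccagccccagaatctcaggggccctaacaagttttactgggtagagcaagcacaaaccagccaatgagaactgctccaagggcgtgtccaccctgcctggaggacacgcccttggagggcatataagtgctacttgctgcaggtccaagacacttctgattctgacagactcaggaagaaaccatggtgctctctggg
The GATA motif began 80 bases before the start site in *Klf1*, 120 in *Gfi1b*, 54 in *Epor* and 183 in *Hba-a1*. *Epor* and *Gfi1b* also held CACCC boxes (4 and 2 matches, overlapping ones counted singly), and *Klf1* and *Hba-a1* held none. Among the other genes, *Gata1* had 3 CACCC boxes between 71 and 34 bases before its start site, *Zfpm1* had 4, *Hbb-bt* had 1, and both windows of *Tfrc* had some, all without a GATA motif. A match is a description of the letters in the window, not a bound site.

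The erythroid genes separated the populations. In the Renilla libraries, 9 of the 10 were called higher in CMPs at an adjusted p under 0.05 (edgeR's quasi-likelihood test, Benjamini-Hochberg adjustment over 15066 genes), where 11.0% of all genes tested were called higher. The median log2 fold change of the 10 was 2.01, against -0.02 over all genes tested. For 9 of the 10, every CMP library lay above every LSK library in CPM, which held for 16.4% of all genes tested. Bulk RNA cannot tell apart a larger share of cells that express a gene from more RNA of it per cell. CPM are scaled by TMM factors, log2 fold changes are given ± their standard error (SE), and gene positions are those of GENCODE vM21 on GRCm38.

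*Klf1*, the zinc finger factor that drives the adult globin and membrane genes (ENSMUSG00000054191.8, chr8:84901928-84905291, plus strand), had the highest log2 fold change of the 10. Its CPM was 27.5, 42.2, 19.4 and 55.9 in LSK Renilla libraries A to D and 325, 314, 257 and 299 in the CMP ones. All CMP libraries lay far above all LSK libraries, a log2 fold change of 3.03 ± 0.30, adjusted p = 3.24e-06, or 8.19-fold. *Gata1* (ENSMUSG00000031162.14, chrX:7959260-7978071, minus strand) stood at 79.0, 67.5, 58.9 and 77.5 CPM in LSK cells and 312, 312, 278 and 284 CPM in CMPs. The values within each population were tight, and the log2 fold change was 2.07 ± 0.17, adjusted p = 5.15e-07. *Gfi1b*, the repressor (ENSMUSG00000026815.14, chr2:28609450-28621982, minus strand), moved from 139, 127, 123 and 125 CPM to 318, 278, 276 and 274 CPM, a log2 fold change of 1.16 ± 0.14, adjusted p = 2.98e-05. The cofactor *Zfpm1* (ENSMUSG00000049577.15, chr8:122282141-122337251, plus strand) was already well expressed in LSK cells, at 264, 231, 261 and 217 CPM, and reached 364, 379, 434 and 333 CPM in CMPs. Its log2 fold change of 0.63 ± 0.13, adjusted p = 0.00223 was the smallest of the 9 that passed. *Zfpm1* overlaps the annotated gene *Gm20388* on the same strand, so reads in the shared part can be counted for neither or the other.

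Both receptors were higher in CMPs. *Epor* (ENSMUSG00000006235.6, chr9:21958897-21963506, minus strand) had 21.3, 29.1, 35.5 and 29.6 CPM in LSK Renilla libraries and 169, 199.6, 161 and 150.2 CPM in CMP Renilla libraries. The lowest CMP library exceeded the highest LSK library several fold, with a log2 fold change of 2.56 ± 0.23, adjusted p = 1.24e-06. *Tfrc* (ENSMUSG00000022797.16, chr16:32608920-32632794, plus strand) had 37.4, 56.8, 46.1 and 73.6 CPM in LSK cells and 229, 224, 184 and 196 CPM in CMPs, a log2 fold change of 1.96 ± 0.28, adjusted p = 0.000164.

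The effectors were less uniform. *Car1* (ENSMUSG00000027556.15, chr3:14766216-14808368, minus strand) spread widely among the LSK libraries, at 52.8, 101, 76.9 and 150.5 CPM, and closely among the CMP libraries, at 255, 247, 225 and 243 CPM. The groups did not overlap and the log2 fold change was 1.34 ± 0.24, adjusted p = 0.00109. *Car2* (ENSMUSG00000027562.12, chr3:14886273-14900770, plus strand) was the exception, at 318, 318, 413 and 329 CPM in LSK cells and 411, 390.1, 366 and 393 CPM in CMPs. LSK library C, the shallowest of all 19, lay above every CMP library, and the log2 fold change of 0.18 ± 0.08, adjusted p = 0.119 did not pass the threshold. Without that library it was 0.27 with an adjusted p of 0.00932. Raw counts of *Car2* were nearly level, at 1503 to 1582 in the LSK Renilla libraries and 1560 to 1603 in the CMP ones. The CPM of *Car2* thus depended largely on the library totals, and these 2 fold changes cannot be read as expression alone. With a scaling for the density of counts along exons (described below), the log2 fold change of *Car2* was -0.004 (adjusted p = 0.973).

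Globin transcripts were scarce in both populations. *Hba-a1* (ENSMUSG00000069919.7, chr11:32283511-32284465, plus strand) had raw counts of 5, 7, 5 and 8 in the LSK Renilla libraries and 33, 34, 48 and 38 in the CMP ones, and its log2 fold change was 2.73 ± 0.64, adjusted p = 0.00635. *Hbb-bt* (ENSMUSG00000073940.3, chr7:103812524-103813996, minus strand) had 4, 13, 9 and 14 counts in LSK cells and 21, 33, 60 and 43 counts in CMPs, with 2.08 ± 0.63, adjusted p = 0.0274. Every CMP library lay above every LSK library for both, yet the *Hbb-bt* call was lost (adjusted p of 0.0537 to 0.0838) when any of 5 libraries was left out: CMP Renilla C or D, or LSK Renilla A, B or C. Windows of 50 bases shared with a near copy made up 72.3% of the *Hba-a1* transcripts (with *Hba-a2*) and 58.3% of the *Hbb-bt* transcript (with *Hbb-bs*), so counts of single globin genes are uncertain. *Car1* shared 13.4% of its windows with *Gm5843*, and the other 7 genes shared none with another gene. *Car1* also overlaps the pseudogene *Gm16399* on the same strand.

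**Figure D1:**
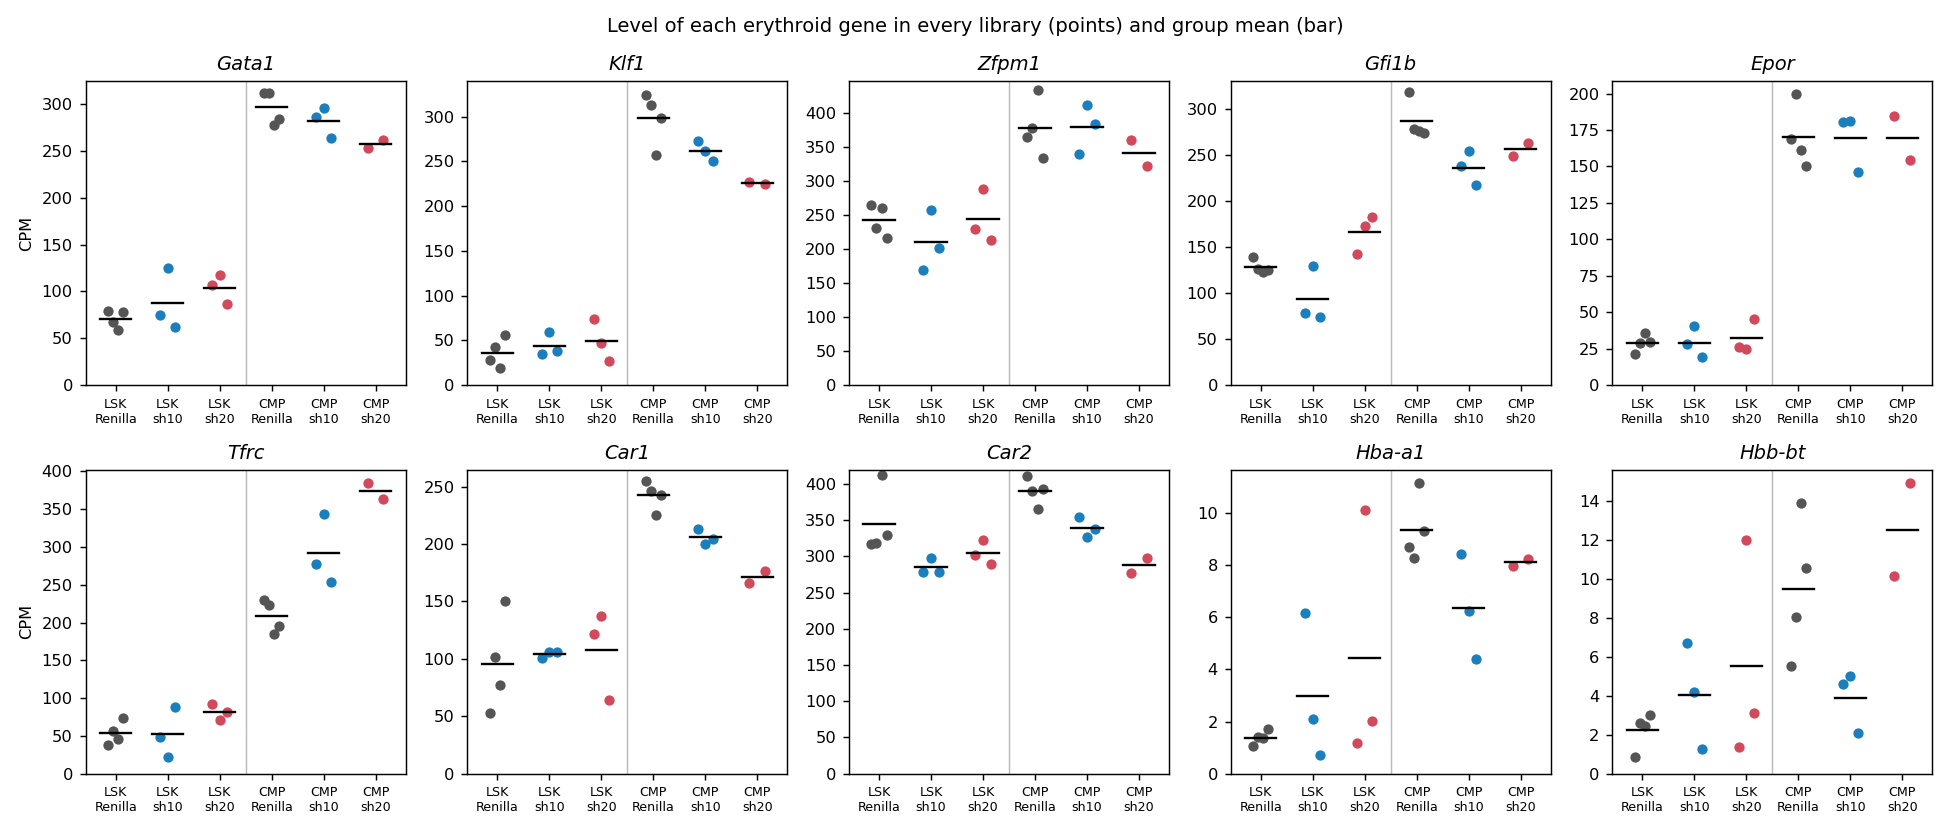
CPM (TMM-scaled, axes from 0) of each of the 10 genes in all 19 libraries by population and shRNA, where points are libraries and bars are group means. CMP points stand above LSK points in most panels, *Car2* is nearly level, and *Tfrc* climbs from Renilla to sh20 in CMPs.

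Levels per kilobase of exon allow genes to be compared, but counts after duplicate removal rarely passed 1 per exonic base (values below), so the order among the densest genes is limited by that measure. On this scale *Klf1* and *Car1* led in CMP Renilla libraries at 195 ± 19.3 and 194 ± 9.92 CPM per kb (SD, n = 4), a pair that cannot be ordered beyond their spread. *Car2* (161 ± 7.63) and *Gfi1b* (157 ± 11.5) followed and likewise overlapped, then *Gata1* (122 ± 7.39), *Zfpm1* (108), *Epor* (85.4 ± 10.7) and *Tfrc* (33.7 ± 3.52). The globins closed the order at 13.5 ± 5.10 for *Hbb-bt* and 11.5 ± 1.55 for *Hba-a1*, within each other's spread. In LSK Renilla libraries *Car2* led at 142 CPM per kb, with *Car1*, *Gfi1b* and *Zfpm1* between 69.4 and 76.4, and *Klf1* stood sixth at 23.7 ± 10.6. The order among CMPs with sh10 was the same down to *Tfrc*, and with sh20 *Gfi1b* (140 ± 5.66, n = 2) stood before *Car1* (137 ± 6.00), within their spread, and before *Car2* (119 ± 6.17), beyond it.

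Genes of other lineages also differed between the populations, in differing directions. The summed level of 18 megakaryocyte genes ranged from 1692 to 2276 CPM in LSK Renilla and from 1884 to 3602 CPM in CMP Renilla libraries, with 11 of the 17 tested called higher and 1 lower. Over all genes tested, 8.73% were called lower. Of 16 granulocyte and monocyte genes, 12 were called lower in CMPs (1223 to 1592 CPM summed, against 2162 to 2463). Of 12 mature neutrophil genes 9, and of 11 mast cell and basophil genes 8, were also called lower. The part of cell composition in the erythroid differences was not tested.

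The same contrast was taken within each knockdown. With sh10, 7 of the 10 genes were called higher in CMPs (7.51% of 15066 genes tested were), namely all but *Car2*, *Hba-a1* and *Hbb-bt*. With sh20, 5 were called higher (5.94% of all genes), namely *Gata1*, *Klf1*, *Gfi1b*, *Epor* and *Tfrc*. The median log2 fold change of the 10 was 1.20 with sh10 and 1.03 with sh20, against 0.01 and -0.02 over all genes. Every CMP library lay above every LSK library for 8 of the 10 with sh10 (19.4% of all genes) and for 7 with sh20 (18.1%).

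For *Klf1* the log2 fold change between the populations was 2.58 ± 0.34, adjusted p = 7.36e-05 with sh10 and 2.20 ± 0.35, adjusted p = 0.000545 with sh20, beside 3.03 with Renilla. For *Gata1* it was 1.69 ± 0.19, adjusted p = 1.91e-05 with sh10 and 1.31 ± 0.21, adjusted p = 0.000429 with sh20, beside 2.07. *Gfi1b* gave 1.33 ± 0.16, adjusted p = 3.73e-05 with sh10 and 0.62 ± 0.18, adjusted p = 0.0241 with sh20. The last of these was lost (adjusted p of 0.0638 to 0.0795) without CMP sh20 B, CMP sh20 C or LSK sh20 A. Both receptors were called with each *Spehd* shRNA. *Epor* gave 2.54 ± 0.26, adjusted p = 8.51e-06 and 2.40 ± 0.28, adjusted p = 2.99e-05. *Tfrc* gave 2.46 ± 0.33, adjusted p = 9.66e-05 and 2.19 ± 0.35, adjusted p = 0.000466. *Zfpm1* passed in edgeR with sh10 (0.85 ± 0.15, adjusted p = 0.000736). With sh20 it lay at the threshold (0.49 ± 0.16, adjusted p = 0.0516) and passed with DESeq2 (adjusted p = 0.0461). *Car1* passed with sh10 (0.99 ± 0.28, adjusted p = 0.0212), though not without CMP sh10 A, CMP sh10 B or LSK sh10 A (adjusted p of 0.0577 to 0.0657), and not with sh20 (0.67 ± 0.30, adjusted p = 0.152).

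**Figure D2:**
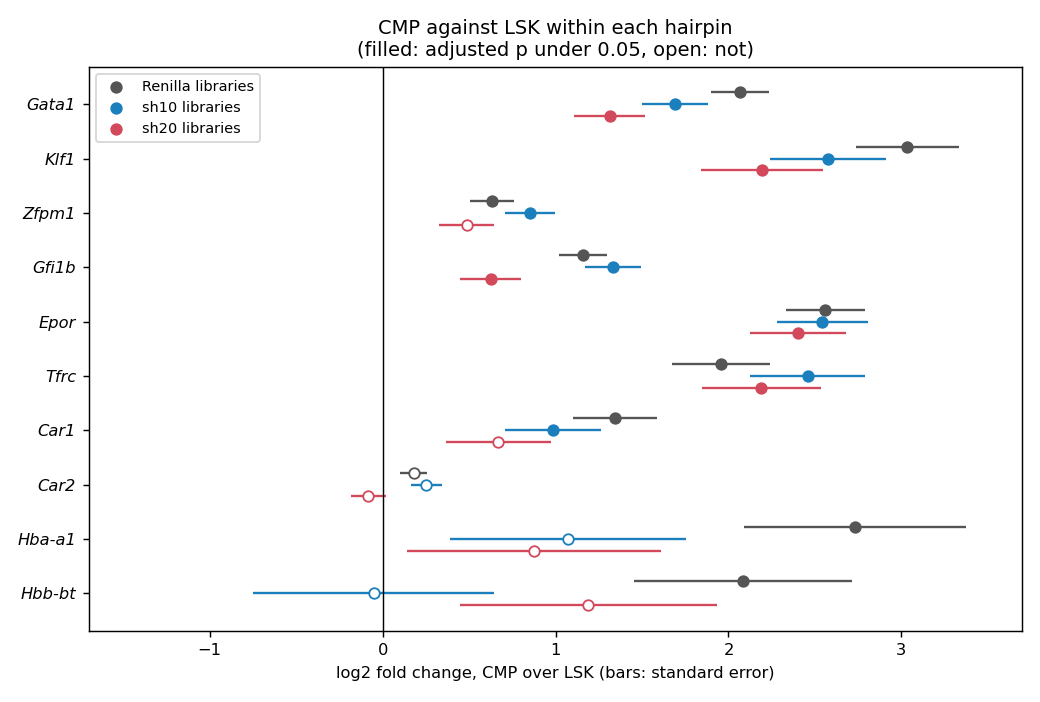
Log2 fold change of CMP over LSK (horizontal axis; bars are standard errors) for each gene within Renilla, sh10 and sh20 libraries, filled where the adjusted p was under 0.05. *Epor* and *Tfrc* lie between 1.96 and 2.56 with all 3 shRNAs, and *Gata1* and *Klf1* run from 2.07 and 3.03 with Renilla to 1.31 and 2.20 with sh20. No difference of a *Spehd* shRNA from Renilla in this contrast passed the threshold for any gene shown.

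Whether these contrasts differed between shRNAs was tested as the difference of the knockdown effect in CMPs from that in LSK cells, in 1 fit of all 6 groups. None of the 10 genes passed for both *Spehd* shRNAs together, for sh10 or for sh20 (edgeR; 0.0531%, 0.0199% and 0.584% of 15066 genes did), and DESeq2 called none either. At an unadjusted p under 0.05 there were 2, 1 and 2 genes, where 10.1%, 7.76% and 13.8% of all genes were. For sh20 these were *Gata1*, at -0.75 ± 0.27, adjusted p = 0.241, and *Gfi1b*, at -0.53 ± 0.23, adjusted p = 0.311. For both shRNAs together they were *Gata1*, at -0.56 ± 0.22, adjusted p = 0.427, and *Hba-a1*, at -1.76 ± 0.80, adjusted p = 0.485, and for sh10 *Hbb-bt*, at -2.13 ± 0.94, adjusted p = 0.639. A change of the CMP to LSK difference by knockdown was not detectable for any of the 10 with these libraries.

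Within CMPs, *Tfrc* was the only one of the 10 for which every knockdown library lay above every Renilla library. Its CPM was 229, 224, 184 and 196 in Renilla libraries A to D, 278, 343 and 254 in sh10 libraries A to C and 384 and 364 in sh20 libraries B and C. Of the 12912 genes tested, 2.88% had that pattern. With both *Spehd* shRNAs as 1 group the log2 fold change was 0.65 ± 0.13, adjusted p = 0.07, which did not pass. With sh20 alone it was 0.86 ± 0.12, adjusted p = 0.0093 (1.81-fold), and with sh10 alone 0.49 ± 0.11, adjusted p = 0.0562. Against sh10, sh20 gave 0.38 ± 0.13, adjusted p = 0.105. The sh20 call was lost when all 19 libraries were in 1 fit (0.85 ± 0.32, adjusted p = 0.139). It was also lost with a block for the library letter (see the last section).

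Counts over the 10 genes depended on how the shRNAs were grouped. With both shRNAs as 1 group, edgeR called none (0.116% of 12912 genes were called), 5 genes had an unadjusted p under 0.05 (16.6% of all genes did), and DESeq2 called 3 (9.39% of the genes it gave an adjusted p), namely *Tfrc* higher and *Car1* and *Car2* lower. *Gfi1b*, *Car1* and *Car2* had every knockdown library below every Renilla library, as did 6.37% of all genes. With sh10 edgeR called none (1.97% of 13824 genes), 6 had an unadjusted p under 0.05 (21.2%), and DESeq2 called 4 (9.26%), namely *Tfrc* higher and *Gfi1b*, *Car1* and *Car2* lower. With sh20, 1 was called higher (1.90% of all genes) and 3 lower (4.27%): *Tfrc* rose, and *Klf1*, *Car1* and *Car2* fell. In sh20 against sh10 none was called (6.41% of all genes were), 4 had an unadjusted p under 0.05 (26.5%), and DESeq2 called 1, *Hbb-bt* (13.2% of all genes).

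*Klf1* stood at 325, 314, 257 and 299 CPM with Renilla, 273, 262 and 251 CPM with sh10 and 227 and 225 CPM with sh20, and the log2 fold change with sh20 was -0.39 ± 0.09, adjusted p = 0.0383. The call was lost without any one of CMP sh20 B and CMP Renilla A, B or D. *Car1* went from 255, 247, 225 and 243 CPM through 213, 199.7 and 205 CPM with sh10 to 166 and 176 CPM with sh20 (-0.49 ± 0.07, adjusted p = 0.0093 for sh20). *Car2* followed the same order, at 411, 390.1, 366 and 393 CPM, 355, 327 and 337 CPM and 277 and 298 CPM (-0.43 ± 0.07, adjusted p = 0.00971 for sh20).

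In the fit of all 19 libraries the sh20 calls of *Klf1* (adjusted p = 0.542) and *Car1* (adjusted p = 0.36) were lost and that of *Car2* was not (adjusted p = 0.0208). With a block for the library letter none of these calls held.

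The raw counts of these 3 genes did not follow those CPM. In the 9 CMP libraries *Car1* had 967 to 1014 counts, a coefficient of variation of 1.75%, while total counts varied by 15.4%. *Car2* had 1560 to 1698 counts in CMPs and 1498 to 1582 in LSK cells, and *Klf1* had 1108 to 1342 counts in CMPs. *Tfrc* had 794 to 918 counts with Renilla, 1216 to 1709 with sh10 and 2071 to 2267 with sh20, so its rise is present in the raw counts. The authors removed duplicate alignments before counting. Over the 13092 genes that reached 10 counts on average and had 300 exonic bases or more, the highest value in any library was 1.02 counts per exonic base, and only 1 gene exceeded 1. In CMPs the mean was 0.818 for *Klf1*, 0.793 for *Car1*, 0.671 for *Gfi1b*, 0.670 for *Car2*, 0.542 for *Gata1*, 0.496 for *Zfpm1*, 0.402 for *Epor* and 0.215 for *Tfrc*, against 0.046 for *Hba-a1* and 0.057 for *Hbb-bt*. Genes with over 0.4 counts per exonic base had, as a class of 419, a median log2 fold change of -0.24 with sh20 in CMPs, and 90.5% of them were negative, while the 4250 genes with 0.01 to 0.05 had a median of 0.11.

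**Figure D3:**
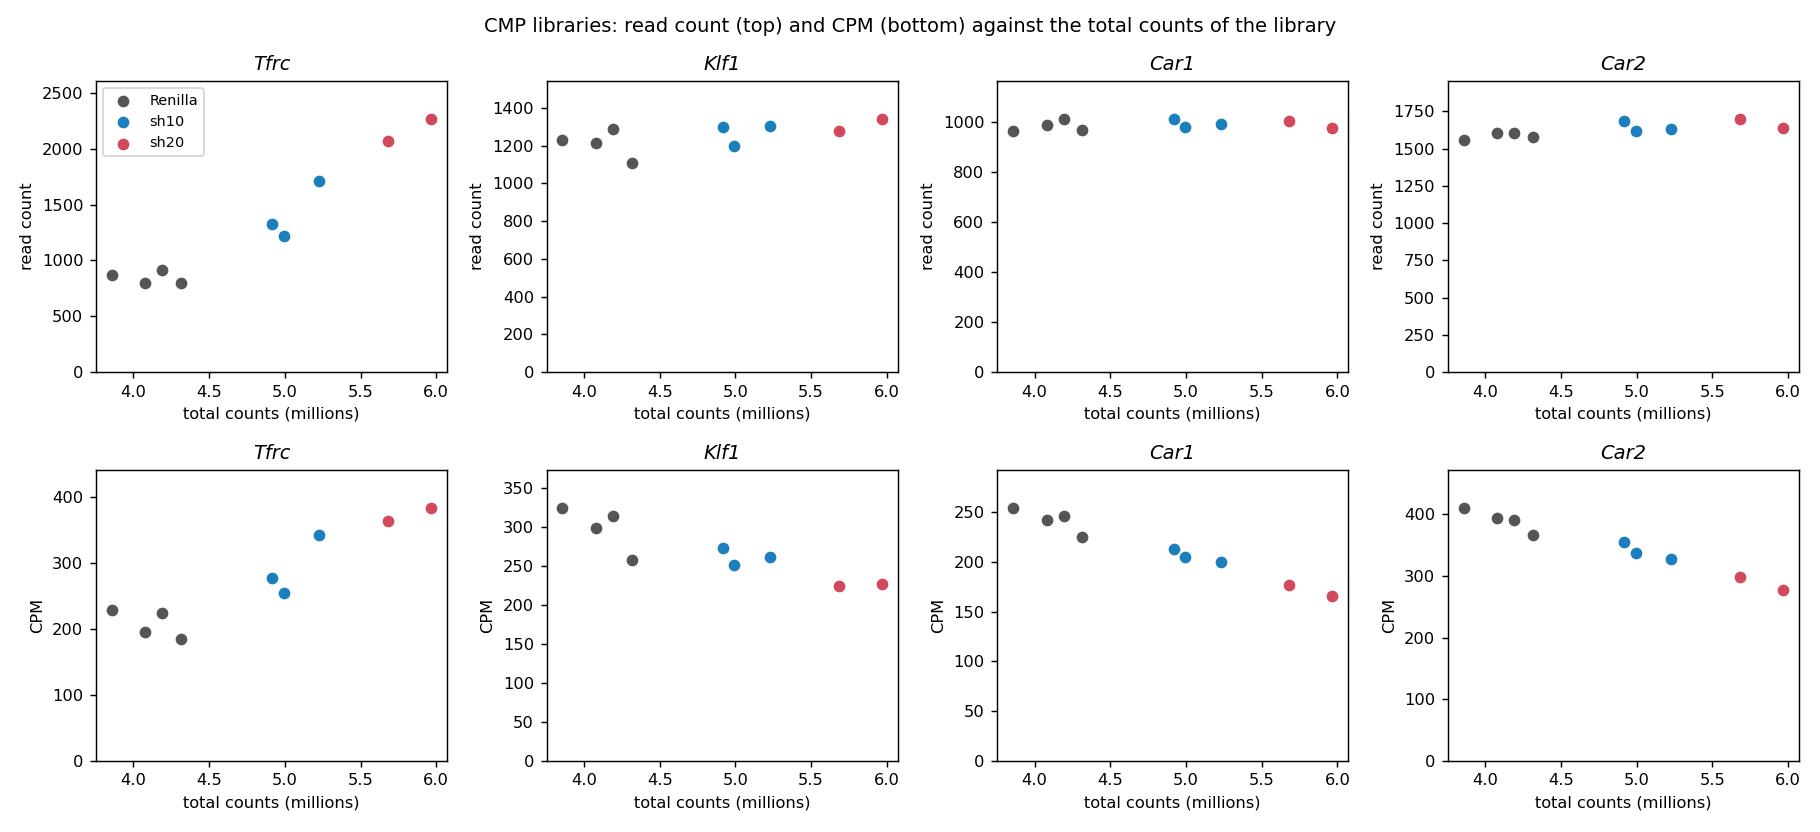
Raw read count (top row) and CPM (bottom row) of *Tfrc*, *Klf1*, *Car1* and *Car2* in the 9 CMP libraries against the total counts of each library, coloured by shRNA. Counts of *Car1* and *Car2* stay level as totals rise, so their CPM fall, whereas counts and CPM of *Tfrc* both rise.

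A scaling fitted in each library to the density of counts along exons (called the offset here), added after the data were seen, changed the picture for the dense genes. With it, the sh20 log2 fold change in CMPs was -0.06 ± 0.07 for *Klf1* (adjusted p = 0.674), -0.17 ± 0.06 for *Car1* (adjusted p = 0.137) and -0.14 ± 0.05 for *Car2* (adjusted p = 0.144), and none of these passed. *Tfrc* was at 0.90 ± 0.11 (adjusted p = 0.0151), and with sh10 it passed at 0.51 (adjusted p = 0.0445). In a fit of all 19 libraries with the log2 total as a covariate, *Tfrc* with sh20 was 0.09 ± 0.55 and none of the 10 was called. Totals and shRNA move together in CMPs, so in that fit depth and knockdown cannot be told apart. The same offset left the CMP against LSK contrast with Renilla at 9 genes called, with *Klf1* at 2.85 and *Car2* at -0.004.

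**Figure D4:**
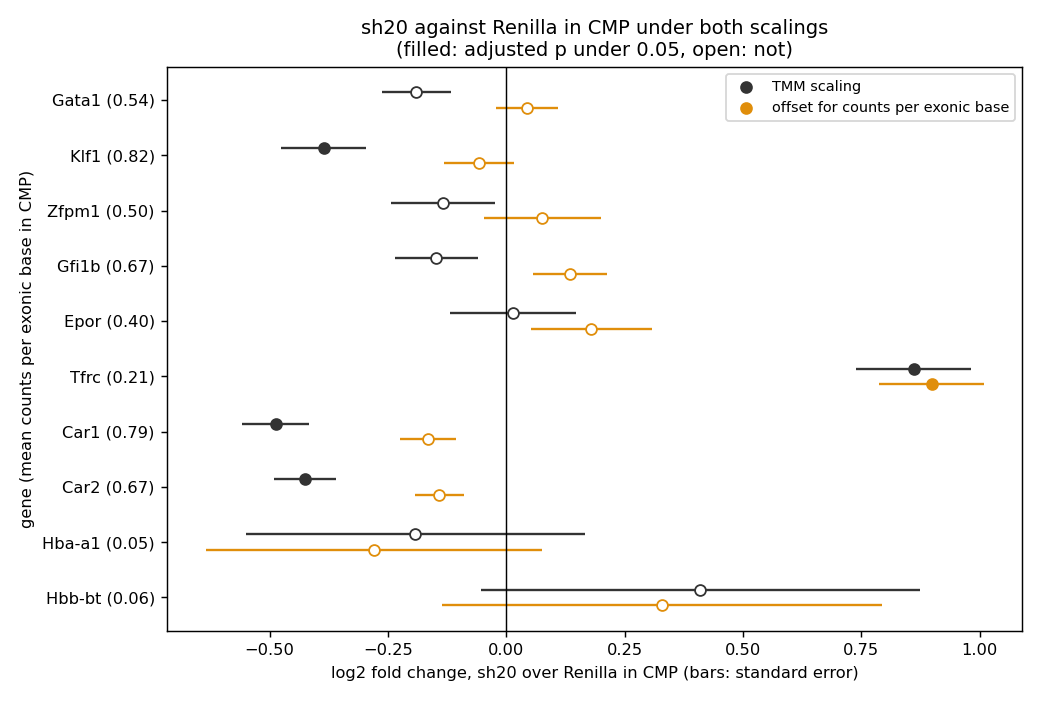
Log2 fold change of sh20 over Renilla in CMPs (horizontal axis; bars are standard errors) for each gene under TMM scaling and under the exon density offset, filled where the adjusted p was under 0.05; the mean counts per exonic base stand beside each name. *Tfrc* stays at 0.86 and 0.90, and *Klf1*, *Car1* and *Car2* move toward 0.

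The remaining factors and the erythropoietin receptor did not pass in edgeR in any CMP knockdown contrast, and DESeq2 called *Gfi1b* with sh10 (-0.28, adjusted p = 0.0322). *Gata1* had 286, 296 and 264 CPM with sh10 and 253 and 262 CPM with sh20 (-0.19 ± 0.07, adjusted p = 0.147 for sh20). *Gfi1b* had 238, 254 and 217 CPM with sh10 and 249 and 263 CPM with sh20, all below the 4 Renilla libraries, and the log2 fold change of both together was -0.23 ± 0.08, adjusted p = 0.16. Both factors belong to the dense class above, and under the offset they stood at 0.06 and -0.004 for both shRNAs. *Zfpm1* (340.3, 413 and 385 CPM with sh10, 359.7 and 322 with sh20) overlapped its Renilla range. *Epor* had 181, 181 and 146 CPM with sh10 and 185 and 155 CPM with sh20, inside or near the Renilla range, and its log2 fold change was 0.001 ± 0.10, adjusted p = 0.999, the closest of the 10 to 0.

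The globins did not pass in edgeR in any CMP knockdown contrast. *Hbb-bt* had 22, 25 and 10 raw counts with sh10 and 60 and 85 with sh20, against 21, 33, 60 and 43 with Renilla. Its log2 fold change was -1.28 ± 0.44, adjusted p = 0.14 for sh10, and sh20 against sh10 gave 1.69 ± 0.50, adjusted p = 0.072. DESeq2 called the latter (1.71, adjusted p = 0.0247). *Hba-a1* had 40, 31 and 21 counts with sh10 and 47 and 47 with sh20, and its log2 fold change for both shRNAs together was -0.40 ± 0.30, adjusted p = 0.56. Its sh10 and sh20 libraries overlapped in CPM, and sh20 against sh10 gave 0.37 ± 0.38, adjusted p = 0.576.

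In LSK cells no erythroid gene passed in any knockdown contrast. For both shRNAs together 9 of the 10 were tested (*Hba-a1* missed the count filter), edgeR called none of them and none of 13441 genes, 1 had an unadjusted p under 0.05 (3.66% of all genes did), and DESeq2 called no member. With sh10 and sh20 alone, all 10 were tested and none was called by edgeR (0.00% of 13828 genes in each) or DESeq2; 2 and 1 had an unadjusted p under 0.05 (3.30% and 8.33% of all genes). *Gata1* had 74.7, 125 and 62.3 CPM in LSK sh10 libraries and 106, 118 and 86.3 CPM in sh20 libraries. With sh20 its log2 fold change against Renilla was 0.53 ± 0.24, adjusted p = 0.591. The CMP effect of sh20 minus this one did not pass either (-0.75 ± 0.27, adjusted p = 0.241). *Klf1* was 34.5, 59.7 and 37.8 CPM with sh10 and 73.5, 47.3 and 27.4 CPM with sh20, within or above its Renilla range and never below it. *Tfrc* was 48.5, 22.6 and 88.2 CPM with sh10 and 92.7, 71.4 and 81.6 CPM with sh20 (0.59 ± 0.37, adjusted p = 0.76), so the separation seen in CMPs was not detectable in LSK cells, and its difference between the populations was 0.23 ± 0.44, adjusted p = 0.874.

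*Gfi1b* separated the 2 *Spehd* shRNAs in LSK cells. It had 78.6, 129 and 73.7 CPM with sh10 and 143, 173 and 183 CPM with sh20. Every sh20 library lay above every sh10 library (7.06% of 13828 genes did so), with 0.79 ± 0.21, adjusted p = 0.237, so edgeR called none of the 10 (0.00% of all genes), 1 had an unadjusted p under 0.05 (9.17%), and DESeq2, which called 1.47% of all genes, called this one (0.81, adjusted p = 0.026). Without LSK sh10 B, the highest of the sh10 libraries, edgeR gave 1.10 with an adjusted p of 0.0366. *Epor*, *Zfpm1*, *Car1* and *Car2* with either shRNA had unadjusted p of 0.0318 to 0.934 against Renilla in LSK cells.

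Globin transcripts were high in 2 LSK libraries. LSK sh20 B had 47 counts of *Hba-a1* and 56 of *Hbb-bt*, and LSK sh10 A had 35 and 38, against 4 to 11 and 4 to 22 in the other 8 LSK libraries. The counts of *Hba-a1*, *Hba-a2*, *Hbb-bt*, *Hbb-bs*, *Alas2* (the heme synthesis enzyme of red cells) and *Slc4a1* (the anion exchanger of the red cell membrane) summed to 490 in LSK sh20 B and 229 in LSK sh10 A, against 24 to 76 in the other 8. In CMPs the same sum was 118 to 356 with Renilla, 66 to 168 with sh10 and 347 to 372 with sh20, so LSK sh20 B exceeded every CMP library. The transcripts did not all follow the sum: *Slc4a1* had 3 counts in LSK sh10 A, within its range in the other 8 LSK libraries, and *Alas2* had 1 count in CMP sh20 B. *Klf1* stood at 47.3 CPM in LSK sh20 B, between LSK sh20 A (73.5) and C (27.4), and *Gata1* at 118 CPM, beside 106 and 86.3. Without LSK sh20 B, the contrast of CMP over LSK with sh20 called 8 of the 10 rather than 5: *Hba-a1* was then 2.34 (adjusted p = 0.0352) and *Hbb-bt* 2.48 (adjusted p = 0.0376), in place of 0.88 and 1.19, and *Zfpm1* was the other one added. Without LSK sh10 A, *Hba-a1* in CMP over LSK with sh10 was 2.13 (adjusted p = 0.0719) in place of 1.07. The source of these transcripts was not tested.

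**Figure D5:**
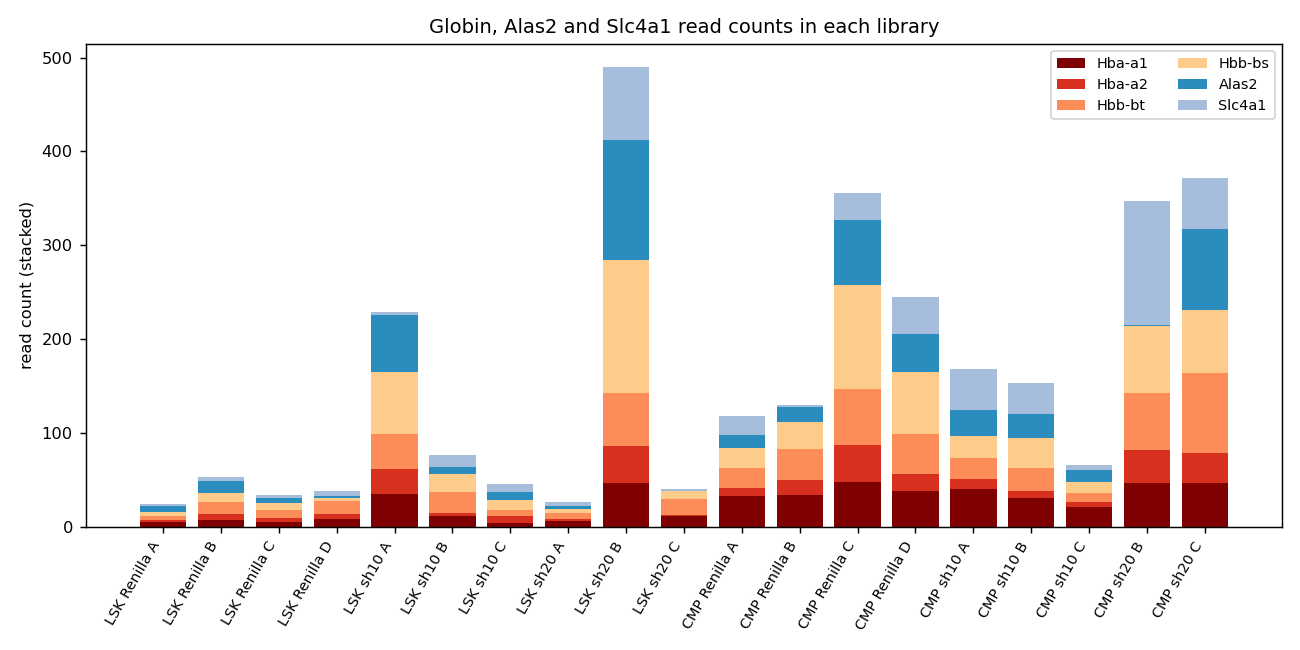
Stacked raw read counts (vertical axis, from 0) of 4 globin genes, *Alas2* and *Slc4a1* in each of the 19 libraries. LSK sh20 B, with a sum of 490, stands above all other libraries, and LSK sh10 A, with 229, above the other 8 LSK libraries.

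Further erythroid genes, listed by function, followed the members between the populations in part. Of 25 early erythroid effectors, genes of membrane, heme and signalling that appear with commitment, 24 were called higher in CMP than LSK Renilla libraries and none lower, with a median log2 fold change of 2.76. Over all genes tested, 11.0% were called higher and 8.73% lower, and the median was -0.02. CPM of these genes are given as mean ± SD over the libraries of a group. In CMPs *Trim10* had 25.9 ± 9.80 CPM against 0.391 ± 0.655 (6.14 ± 0.84, adjusted p = 0.000101). *Add2*, which encodes a membrane skeleton adducin, had 102 ± 30.8 CPM against 2.35 ± 1.46 (5.43 ± 0.43, adjusted p = 3.74e-07). The sphingosine kinase gene *Sphk1* had 259 ± 72.1 CPM against 6.86 ± 5.54 (5.20 ± 0.43, adjusted p = 5.3e-07). Of 28 red cell proteins 21 were tested, of which 11 were called higher and 1 lower, the higher ones including *Sptb*, which encodes the erythroid spectrin (43.2 ± 22.4 CPM against 1.32 ± 0.279) and *Kel* (4.15 ± 0.33, adjusted p = 4.92e-07). Of 22 further erythroid factors 5 were called higher and 1 lower, with a median of 0.05: *Nfia* (1.37), *Klf3* (0.98), *E2f4* (0.66) and *Tal1* (0.60) led the rise, and *Lyl1* fell (-0.91). Of 20 genes of erythropoietin signalling and iron uptake 5 were called higher and 3 lower, with a median of 0.04. The iron genes *Steap3* (1.89), *Slc11a2* (1.89) and the mitochondrial carrier *Slc25a38* (1.78) rose, whereas *Pim1* (-1.85), *Hfe* (-1.58) and *Socs3* (-1.14) fell.

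In CMP knockdown, the shares of these genes called are given beside those of all genes. With both shRNAs as 1 group, 1 of the 88 tested passed (0.116% of all genes did), *Nfe2*, a factor of globin and platelet genes (-0.31 ± 0.05, adjusted p = 0.047). With sh10, 4 of the 88 were called (1.97% of all genes), namely *Nfe2* (-0.29) and *Lmo2* (-0.24), which fell, and the iron transporter *Slc11a2* (0.48) and *Atp1b2* (0.69), which rose. With sh20, 2 of the 88 were called higher and 4 lower (6.17% of all genes were called in either direction). *Lyl1* fell from 24.7 ± 3.29 to 10.8 ± 0.0940 CPM (-1.18 ± 0.23, adjusted p = 0.0219), *Lmo2* by 0.35, *Nfe2* by 0.33 and *Fth1*, the ferritin heavy chain, by 0.46 on the log2 scale. *Trim10* (91.5 ± 5.01 CPM against 25.9 ± 9.80) rose by 1.84. Under the offset *Lyl1*, *Fth1* and *Trim10* still passed with sh20, at adjusted p of 0.028, 0.0254 and 0.0397, while *Lmo2* and *Nfe2*, at 0.661 and 0.460 counts per exonic base in CMPs, stood at -0.07 and -0.13 and did not. In LSK cells no gene of these 4 lists passed with either shRNA or both. Between the shRNAs in CMPs, 3 of the 88 were higher with sh20 and 5 lower (6.41% of all genes were called in either direction). *Hfe* (2.66), *Trim10* (2.15 ± 0.41, adjusted p = 0.0223) and *Bcl2l1* (1.09) were higher. *Rab44* (-1.67), *Atp1b2* (-1.29 ± 0.17, adjusted p = 0.00793), *Aqp1* (-0.51), *Stat5a* (-0.39) and *Tcf3* (-0.28) were lower. Beside the erythroid genes, summed megakaryocyte genes in CMPs lay at 1504 to 2064 CPM with sh10 and 3183 to 3234 CPM with sh20, the latter within the Renilla range of 1884 to 3602 CPM. Summed stem cell genes lay at 532 to 669 CPM with sh10 and 983 to 1037 CPM with sh20, against 791 to 969 CPM with Renilla. Granulocyte and monocyte genes summed to 1609 to 1929 CPM with sh10, above all Renilla libraries (1223 to 1592), and 1229 to 1299 CPM with sh20. The 7 surface genes *Kit*, *Ly6a*, *Cd34*, *Fcgr3*, *Fcgr2b*, *Il7r* and *Flt3*, whose proteins serve as markers of progenitors, summed to 807 to 969.8 CPM with sh20, below all Renilla libraries (1107 to 1323), and 1279 to 1444 CPM with sh10. The part of these lists in the erythroid values was not tested.

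Over the 19 libraries, the genes whose log2 CPM most resembled the mean standardised log2 CPM of the 10 were *Cited4* and *Eif2b1* (Pearson's r of 0.979 each), *Mfsd2b* (0.976), *Blvrb* (0.969) and *Necap2* (0.967). These are descriptions over libraries that share 2 populations and 3 shRNAs, and every member resembled the mean of the others, from 0.424 for *Car2* to 0.958 for *Gata1*. After group means were subtracted, so that only differences between libraries of a group remained, *Mmadhc* (0.919) and *Shld1* (0.916) came first. In that measure *Hba-a1* and *Hbb-bt* went together (0.895), as did *Klf1* with *Car1* (0.749) and *Gata1* with *Gfi1b* (0.745), whereas *Tfrc* ran against *Gfi1b* (-0.707) and against the mean of the other 9 (-0.526). Single libraries weigh on these values, which were not recomputed without them. LSK sh10 B had the highest *Gata1* (125 CPM) and *Gfi1b* (129 CPM) of its group and the lowest *Tfrc* (22.6 CPM). LSK sh20 B and LSK sh10 A had the highest globin counts of their groups.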

How the data were processed

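Per the labels and the study's methods, RNA of sorted zsGreen+ CMP and LSK cells was amplified with a SMART-Seq kit, and the authors used STAR (mm10) for alignment, Picard to discard duplicates and HTSeq for counts on GENCODE genes. The values analysed are these deposited counts: whole-number reads per gene, not normalized, 1 table per library. Whether the libraries keep strand is not given in the sources used here. A deposited table of normalized values was not used. Rows that name no gene stayed out of library sizes; reads on no gene made up 51.9% to 53.8% of uniquely aligned reads.

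Gene positions and exonic lengths came from GENCODE vM21 (GRCm38), matched by symbol. The 10 genes and all lists were chosen with earlier results of these data known. Counts were compared with edgeR 4.0.16 (R 4.3.3): TMM scaling, filterByExpr with a minimum count of 10 and total of 15, quasi-likelihood F-tests, Benjamini-Hochberg adjustment over all genes tested and a threshold of 0.05. SE is the log2 fold change over the square root of F. CMP against LSK and the differences of effects used 1 fit of 6 groups, shRNA contrasts a fit of 3 groups per population, and the pooled knockdown a fit of 2. All 10 genes passed the filter, except *Hba-a1* in the pooled LSK fit. Named beside the members were, from 4 erythroid lists, genes past the threshold that averaged 10 counts or more, at most 4 with the largest change per direction and list, and 5 genes by likeness to the members on each measure (log2 CPM with a prior count of 2); 1 gene that this rule names is not reported here. Alternatives were DESeq2 1.42.0, relative log expression and upper quartile scaling, no filter or at least 10 counts in every library, a block for the library letter, log2 totals as a covariate, other groupings, each library left out and, added after the data were seen, a lowess offset for counts per exonic base. The test was first run on simulated data with known changes. No library pair of a group agreed within sampling noise (chi-square per degree of freedom of 4.32 to 45.2). Figures used Python 3.11.15, pandas 2.3.3 and matplotlib 3.10.9.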

Additional observations from a re-analysis of the deposited data

Results flagged for a closer look

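For each of the 10 genes, 4 groups of 4 to 6 libraries (the Renilla libraries and the pooled knockdown libraries of each population) were searched for a library far from the others (Dixon's ratio of gap to range), which chance flags in about 1 of 20 groups. Over these 40 searches, 2 libraries were found. *Gfi1b* was at 318 CPM in CMP Renilla A, against 274 to 278 CPM in CMP Renilla B, C and D (ratio 0.906). *Car2* was at 413 CPM in LSK Renilla C, against 318 to 329 CPM in LSK Renilla A, B and D (ratio 0.877), and its raw count there, 1513, was within the range of the other 3 (1503 to 1582), while the total of that library was the lowest of the 19.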

How the results depend on the processing

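Of 163 values called in the main test and refitted with 1 library left out, 15 lost their call, and of 223 refitted under the other settings 18 did; none changed sign. Among values not called, 8 of 1047 with a library left out and 31 of 996 under other settings passed, and 76 and 58 changed sign without being called in the main test.

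Counts of the 10 genes called that moved by over 1.5 times were these, and their causes were not tested. CMP over LSK with sh20 gave 3 in place of 5 when only those groups were fitted. Pooled knockdown in CMPs gave 0 in the main test, 3 with upper quartile scaling, 1 without the count filter, 3 with DESeq2, 1 in the fit of all 19 libraries and 4 with the shRNAs as separate groups. For sh10 in CMPs the 0 became 2 with upper quartile scaling, 1 without the filter, 1 with at least 10 counts in every library, 4 with DESeq2 and 1 with the exon density offset. For sh20 in CMPs the 4 became 0 with log2 totals as a covariate, 1 in the fit of all 19 libraries (*Car2*) and 1 with the offset (*Tfrc*). For sh20 against sh10 in CMPs the 0 became 1 without the filter (*Tfrc*) and 1 with DESeq2. In LSK cells that contrast gave 1 with DESeq2 and 1 in the fit of all 19 libraries.

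With the library letter as a replicate block, sh20 against Renilla in CMPs called 0 of the 10 in place of 4 (*Tfrc* 0.85, adjusted p = 0.0905), and in no other contrast did the block move the count. Same-letter libraries of different shRNAs in a population had deviations that correlated at -0.079 to 0.044 (16 pairs). CMP and LSK libraries of 1 shRNA and letter correlated at -0.001 to 0.21 (median 0.052, 9 pairs), against -0.169 to 0.09 (median -0.027, 22 pairs) with other letters. Not every same-letter pair was over 0.1, so libraries were not taken as paired, and some pairing of CMP with LSK libraries is not excluded.

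With each library left out in turn, the count ranged from 8 to 9 for CMP over LSK with Renilla, 6 to 8 with sh10 and 4 to 8 with sh20 (8 without LSK sh20 B), 0 to 1 for pooled knockdown in CMPs (1, *Tfrc*, without CMP sh20 B), 3 to 4 for sh20 in CMPs, 0 to 1 for sh20 against sh10 in CMPs (1, *Car2*, without CMP sh20 C) and 0 to 1 in LSK cells (1, *Gfi1b*, without LSK sh10 B). It stayed at 0 for sh10 in CMPs, all LSK contrasts with Renilla and the differences between populations. Where CMP sh20 kept 1 library, that library was taken to vary like the other groups. The sh20 results in CMPs rest on 2 libraries, and globin values on 4 to 85 counts, where counting error alone is large.

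Counts over all genes in CMPs moved as well. Pooled knockdown called 5 genes higher and 10 lower in the main test, 448 and 434 with DESeq2, 44 and 284 with upper quartile scaling and 0 with the block. For sh10, 135 were higher and 137 lower in the main test, 639 and 591 with DESeq2, 113 and 338 with upper quartile scaling and 0 and 5 with the block. For sh20, 263 were higher and 590 lower in the main test, 697 and 1009 with DESeq2, 183 and 280 with the offset, 2 and 18 with log2 totals as a covariate and 0 with the block. With each library left out, sh20 ran from 101 higher and 329 lower (without CMP Renilla B) to 1398 and 1793 (without CMP sh20 C), sh10 from 3 and 6 (without CMP sh10 B) to 159 and 166 (without CMP Renilla B), and pooled knockdown from 0 (without CMP sh10 B or C, or CMP Renilla A, B or D) to 149 and 115 (without CMP sh20 B), so the shares over all genes given beside the members move with single libraries too.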
